A study of Mus musculus with 5 samples.

Results

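The genes described here are a fixed list of 39 interferon-stimulated genes, followed one by one and as a summed level in single cells of mouse bone marrow while a B-lineage leukemia (B-ALL) grew there. The list was set by gene name and no measured value served as a limit, but it was chosen with earlier results of these data known. Of the 39 genes, 38 were measured in the count tables, and Mx2 was not analysed here. The summed level is the number of unique molecular identifiers (UMIs) of the 38 genes per 10000 UMIs of the same cells. A second sum holds the 24 measured genes of an inducible list, those with little basal expression and a strong induction by type I interferon (Ifit1, Ifit2, Ifit3, Isg15, Rsad2, Rtp4, Irf7, Usp18, Oas1a, Oas2, Oas3, Oasl1, Oasl2, Mx1, Cmpk2, Zbp1, Ifi44, Xaf1, Ddx60, Dhx58, Ddx58, Ifih1, Slfn5 and Cxcl10).

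Interferons are secreted proteins by which cells warn one another of viruses and other threats. Type I and type III interferons signal through JAK kinases to a transcription factor complex that includes STAT2 and IRF9 and binds the interferon-stimulated response element, while interferon gamma acts on gamma-activated sequences. The products sense foreign RNA or DNA, degrade or sequester viral RNA, modify proteins with ISG15 and feed back on the signal, and in bone marrow a tonic level of this program is present in many blood cells without infection.

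All 5 animals were C57BL/6J mice bought at 8 weeks of age, not irradiated, and each received 1000 BCR-ABL1 pre-B ALL cells through the tail vein. A single mouse was taken directly after the transplantation (day 0) and 1 each on days 3, 6, 9 and 12, so that the control animal carried the leukemia inoculum too and there was no untransplanted animal. Marrow was flushed, the bones were crushed and digested with collagenase and DNase, red blood cells were lysed and the cells were frozen before droplet capture, with donor and recipient cells measured together and not told apart here. With 1 mouse per day, day and mouse cannot be told apart, and no test between days was made.

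The 5 libraries held 33425695 to 43554233 UMIs, and 4870 to 6944 cells per library passed the limits of 500 UMIs and 10% mitochondrial UMIs, 29679 in all. Median depth was 3143 to 4397 UMIs per cell. Pairs of libraries shared 40 to 61 cell barcodes. The most, 61, were shared by days 3 and 6, where independent draws would share 39.9, and days 0 and 9 shared 60 against 58.9. The day 12 library stood apart by its median mitochondrial share of 0.646%, against 1.22% to 1.92% in the other libraries. Cells were clustered without the listed genes, and 29105 cells fell into 8 classes that carried the markers of neutrophils, monocytes, granulocyte-macrophage progenitors (GMP), B cells, pro-B and pre-B cells, T cells, NK cells and plasmacytoid dendritic cells (pDC), written here as neutrophil-like, monocyte-like and so on. Every class held at least 33 cells in every library. A mitochondrial limit set per library, 3 median absolute deviations over the median, was 2.50% on day 12. Over it were 82 of 89 B-like, 188 of 215 T-like, 155 of 206 GMP-like and 27 of 33 pDC-like cells of that day. So were 40 of 57 pro/pre-B-like, 49 of 88 NK-like and 224 of 697 monocyte-like cells, but only 118 of 4149 neutrophil-like cells.

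The upstream regions of 6 of the genes are shown because they carry, or in the last case lack, the letters of the response element. In each line, 200 bases before the transcription start are written 5′ to 3′ on the strand of the gene, from RefSeq on build GRCm38.p6, and capitals mark matches to GAAANNGAAA or its reverse complement TTTCNNTTTC. Isg15 is the ubiquitin-like modifier, Ifit1 binds foreign RNA and Ifit3 belongs to the same family. Oas3 makes the activator of RNase L, Gbp2 is a guanylate-binding GTPase and Samhd1 hydrolyses deoxynucleotides.
Isg15 promoter, chr4:156200819-156201018 (minus strand): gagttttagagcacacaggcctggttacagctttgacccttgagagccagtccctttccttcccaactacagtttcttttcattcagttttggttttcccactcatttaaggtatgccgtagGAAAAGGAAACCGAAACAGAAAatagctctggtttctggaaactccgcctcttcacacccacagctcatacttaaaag
Ifit1 promoter, chr19:34640689-34640888 (plus strand): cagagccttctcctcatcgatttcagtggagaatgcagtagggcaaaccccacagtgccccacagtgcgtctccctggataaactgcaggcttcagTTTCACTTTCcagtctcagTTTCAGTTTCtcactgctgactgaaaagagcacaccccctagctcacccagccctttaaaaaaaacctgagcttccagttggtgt
Ifit3 promoter, chr19:34583329-34583528 (plus strand): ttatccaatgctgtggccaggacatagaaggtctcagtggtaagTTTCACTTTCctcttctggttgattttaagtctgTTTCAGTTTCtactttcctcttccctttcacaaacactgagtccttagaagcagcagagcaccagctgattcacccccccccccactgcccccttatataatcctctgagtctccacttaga
Oas3 promoter, chr5:120777660-120777859 (minus strand): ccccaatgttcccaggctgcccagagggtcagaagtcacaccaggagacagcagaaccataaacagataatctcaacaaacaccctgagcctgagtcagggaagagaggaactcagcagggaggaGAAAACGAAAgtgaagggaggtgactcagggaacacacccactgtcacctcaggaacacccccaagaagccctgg
Gbp2 promoter, chr3:142620463-142620662 (plus strand): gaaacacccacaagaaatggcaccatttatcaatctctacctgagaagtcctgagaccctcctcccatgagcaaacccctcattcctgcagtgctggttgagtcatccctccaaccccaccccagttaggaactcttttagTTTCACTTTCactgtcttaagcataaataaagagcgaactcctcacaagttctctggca
Samhd1 promoter, chr2:157135097-157135296 (minus strand): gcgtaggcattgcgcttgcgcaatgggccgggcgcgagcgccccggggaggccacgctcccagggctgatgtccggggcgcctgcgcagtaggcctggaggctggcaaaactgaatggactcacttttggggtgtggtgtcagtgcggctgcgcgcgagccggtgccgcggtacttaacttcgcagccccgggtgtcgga

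Over 250 bases before the start on both strands, 16 of the 31 listed genes found in the RefSeq table held these letters (51.6%), against 936 of 27025 genes (3.46%). Isg15 held 3 overlapping matches 66 to 78 bases before its start, and Ifit1 and Ifit3 held 2 each. The gamma-activated sequence letters TTCNNNGAA were in 7 of the 31 (22.6%), against 8.13% of all genes. The remaining 15 genes, among them Irf7, Irf9, Irf1, Oasl2 and Cmpk2, lacked the response element letters in this window. A match describes the letters and not binding, which was not measured.

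Across the classes, the listed genes were most abundant in 2 kinds of cells. pDC-like cells had the highest summed level, 49.3 ± 4.16 per 10000 UMIs (mean ± SD over 5 libraries, lowest 43.0 and highest 53.6), but 77.5% of those UMIs belonged to Bst2 (tetherin, which holds budding virus at the cell surface and is a surface marker of mouse pDC). Without Bst2 the pDC-like level was 11.0 ± 1.47, below the 15.6 ± 1.47 of monocyte-like cells in every library. T-like cells followed with 9.81 for all 38 genes, B-like cells with 8.43, NK-like cells with 8.28, neutrophil-like cells with 5.95, pro/pre-B-like cells with 5.61 and GMP-like cells with 4.88. The ranges over libraries of T-like, B-like and NK-like cells overlapped one another, as did those of neutrophil-like, pro/pre-B-like and GMP-like cells.

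The inducible list gave another order. Monocyte-like cells had 7.63 ± 1.01 per 10000 UMIs, above every other class in all 5 libraries. pDC-like cells had 3.79, T-like cells 3.33, NK-like cells 3.12 and neutrophil-like cells 3.07, with overlapping ranges, and B-like cells had 1.89, pro/pre-B-like cells 1.52 and GMP-like cells 1.17. Gene by gene, the class with the highest mean was monocyte-like for 24 of the 38 genes, pDC-like for 8 (Irf7, Irf1, Stat2, Usp18, Bst2, Ifi44, Ifi35 and Trim30a), T-like for 3 (Ifi47, Igtp and Gbp2), neutrophil-like for 2 (Oas3 and Ddx60) and NK-like for 1 (Ddx58). These means are scaled to total UMIs, and the counts depend on that scale. Of the 24 genes, Isg20, Rsad2, Rtp4, Oas2 and Cmpk2 were lower in monocyte-like than in neutrophil-like cells with the trimmed-mean scaling used below. Of 10512 genes with at least as many UMIs as the least abundant listed gene (214), monocyte-like cells led for 13.8% and pDC-like cells for 17.9%. The lowest library of the leading class lay above the highest of the next class for 13 of the 38, which was the case for 19.0% of the 10512 genes.

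**Figure D1:**
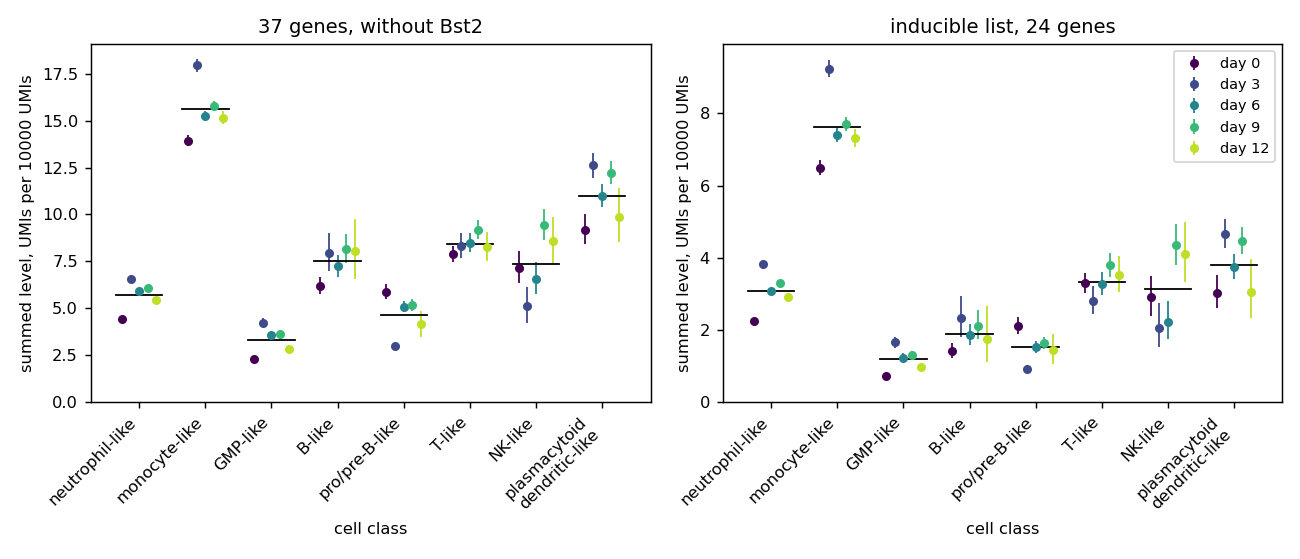
Summed level of 37 genes without Bst2 (left) and of the 24 genes of the inducible list (right), in UMIs per 10000 UMIs, by cell class; each point is 1 library with its exact 95% Poisson interval (counting error only), and the black line is the mean of the 5 libraries. In both panels the 5 monocyte-like points lie above those of every other class on the same day, with means of 15.6 and 7.63.

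Signalling and sensing genes are described first. Irf7, the master transcription factor of type I interferon production, stood at 0.804, 1.4, 1.10, 1.08 and 1.0 per 10000 UMIs in pDC-like cells on days 0, 3, 6, 9 and 12. In monocyte-like cells it stood at 0.683, 0.921, 0.611, 0.743 and 0.658, and in neutrophil-like cells at 0.163, 0.244, 0.177, 0.177 and 0.184. The neutrophil-like values thus lay below both other ranges. Stat2, a subunit of the signalling complex of type I interferons, ran from 0.280 to 0.529 in pDC-like, from 0.156 to 0.225 in monocyte-like and from 0.0340 to 0.0472 in neutrophil-like cells. Irf9, the DNA-binding subunit of that complex, overlapped between monocyte-like (0.540 to 0.657) and pDC-like cells (0.475 to 0.767), and both lay above the 0.176 to 0.263 of neutrophil-like cells. Irf1, a factor induced by interferon gamma above all, had 0.461 to 0.568 in T-like cells and 0.314 to 0.347 in monocyte-like cells, which did not overlap.

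Of the sensors, Zbp1, which recognises Z-form nucleic acids, was at 0.790, 1.05, 0.776, 0.776 and 0.866 in monocyte-like cells and at 0.421, 0.385, 0.384, 0.627 and 0.435 in T-like cells. Both ranges lay above the 0.0850 to 0.165 of neutrophil-like cells. Ifih1 (MDA5), Dhx58 (LGP2) and Ddx58 (RIG-I) are the cytoplasmic RNA sensors. Ifih1 ran from 0.140 to 0.215 in monocyte-like and from 0.0333 to 0.0547 in neutrophil-like cells, while Ddx58 was higher in lymphoid cells, with 0.179 to 0.313 in T-like and 0.193 to 0.369 in B-like cells, than in monocyte-like (0.127 to 0.163), neutrophil-like (0.110 to 0.133) and pDC-like cells (0.0416 to 0.0699).

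The Ifit genes were rare transcripts even where they were highest. Ifit3 had 0.209, 0.272, 0.293, 0.254 and 0.246 per 10000 UMIs in monocyte-like cells and a UMI in 4.58% to 11.5% of them. Neutrophil-like cells had 0.0497, 0.0834, 0.0389, 0.0770 and 0.0445, with a UMI in 1.24% to 2.62% of the cells. GMP-like cells had 0.00349 to 0.0276, so the 3 ranges did not overlap. Ifit1 had 0.151, 0.204, 0.259, 0.192 and 0.113 in monocyte-like cells and 0.0463, 0.0986, 0.0534, 0.0715 and 0.0542 in neutrophil-like cells. Ifit2 was lower in both, at 0.0478 to 0.103 and 0.0125 to 0.0336. Ifit3 shares sequence with Ifit3b, so its counts may be split between the copies, and the same caution holds for Oas1a, Trim30a and Igtp.

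Isg15 was at 0.761, 1.15, 0.770, 0.947 and 0.813 in monocyte-like cells, found in 21.0% to 34.0% of them, and at 0.348, 0.553, 0.387, 0.434 and 0.445 in neutrophil-like cells. T-like cells overlapped the neutrophil-like range, with 0.352 to 0.609. Usp18, which removes ISG15 and blocks the type I receptor, was at 0.264 to 0.520 in pDC-like, 0.283 to 0.343 in monocyte-like and 0.0444 to 0.0709 in neutrophil-like cells.

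Among effectors, Samhd1 was at 3.31, 3.29, 3.16, 3.14 and 3.14 in monocyte-like cells, with a UMI in 80.8% to 86.8% of them, and at 1.82 to 2.21 in B-like cells. The monocyte-like values varied by an SD of 0.0843 across the 5 mice. In neutrophil-like cells Samhd1 was at 1.05, 1.23, 1.34, 1.32 and 1.29, where it made up 21.0% of the UMIs of the listed genes. Rsad2 (viperin, which makes a chain-terminating nucleotide) was at 0.142, 0.199, 0.254, 0.241 and 0.166 in monocyte-like cells and at 0.111, 0.225, 0.187, 0.215 and 0.144 in neutrophil-like cells, 2 overlapping ranges. Isg20, an exonuclease, overlapped as well, at 0.0913 to 0.172 and 0.0980 to 0.157. Oasl2, a 2′-5′-oligoadenylate synthetase-like protein, did not overlap, at 0.296, 0.635, 0.408, 0.464 and 0.367 in monocyte-like and 0.130, 0.253, 0.226, 0.207 and 0.154 in neutrophil-like cells.

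Cxcl10, the chemokine that attracts activated T cells through CXCR3, was confined neither to a class nor to a day. Monocyte-like cells had 0.333, 0.412, 0.516, 0.333 and 0.185 per 10000 UMIs, and neutrophil-like cells 0.0225, 0.0291, 0.0312, 0.0287 and 0.00969. NK-like cells had 0.0266, 0.218, 0.0586, 1.16 and 0.256. The day 9 value came from 63 UMIs in 3.28% of 122 cells, and the other 4 libraries held 1 to 6 UMIs.

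The same genes were counted in free RNA. In barcodes of at most 100 UMIs, which hold no cell, the 38 genes had 9.76 to 14.7 UMIs per 10000, more than in neutrophil-like cells of any library. Bst2 was at 0.130, 0.347, 0.376, 0.328 and 0.150 in neutrophil-like cells and at 2.0, 3.66, 3.75, 3.27 and 1.44 in those barcodes, next to 107, 181, 219, 239 and 33 pDC-like cells in the same libraries. All 3 series were higher on days 3, 6 and 9 than on days 0 and 12, and the part of free RNA in the neutrophil-like level was not tested.

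**Figure D2:**
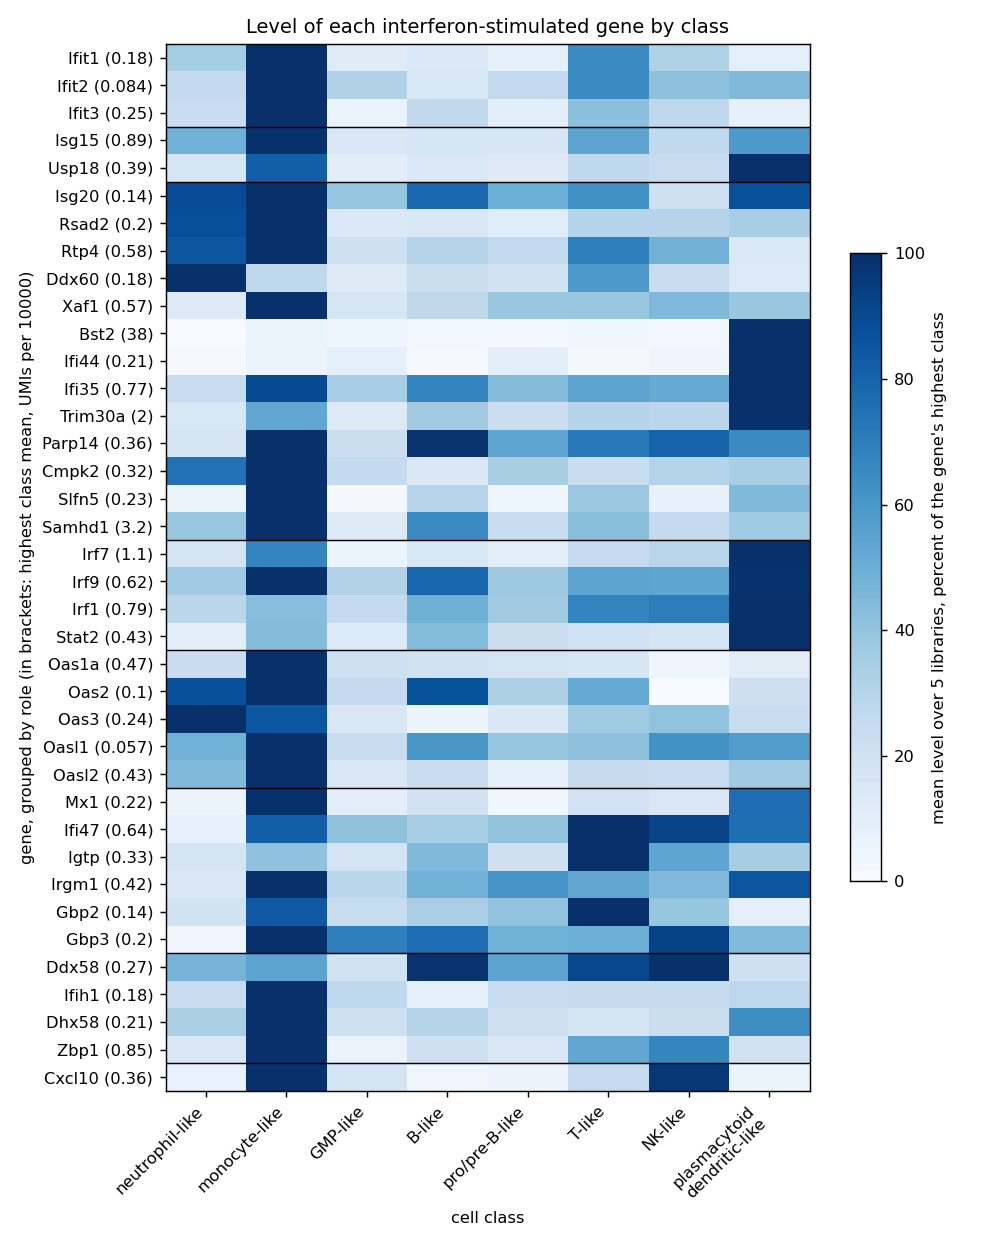
Mean level over 5 libraries of each of the 38 genes (rows, grouped by role, with the highest class mean in UMIs per 10000 in brackets) in the 8 classes (columns), shaded as percent of that gene's highest class. The monocyte-like column is the darkest for 24 rows and the pDC-like column for 8, with Bst2 nearly blank outside pDC-like cells. Levels are scaled to total UMIs, and the counts of rows depend on that scale.

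Which classes differ in the listed genes was tested with edgeR's quasi-likelihood test on UMI counts summed per class and library, with the library as a block and Benjamini-Hochberg adjustment over 9832 genes. Of the 38 genes, 37 passed the filter on low counts and Oasl1 did not (0.0567 per 10000 UMIs in monocyte-like cells). Fold changes are on the log2 scale with trimmed-mean (TMM) scaling ± SE. Scaling to total UMIs instead moved the fold changes of all genes by -1.08 for neutrophil-like against GMP-like, 1.12 for monocyte-like against neutrophil-like, -0.20 for both lymphoid comparisons, 0.18 for pDC-like against monocyte-like and 0.03 for monocyte-like against GMP-like cells, so the counts of the listed genes are given on both scales. Of all calls, the share that was higher moved from 51.0% to 17.9% and from 49.7% to 88.7% in the first 2 comparisons, from 51.2% to 35.6% for B-like against pro/pre-B-like, from 51.4% to 23.4% for T-like against NK-like and from 47.8% to 64.0% for pDC-like against monocyte-like cells. The levels per 10000 UMIs above are on the total scale.

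Monocyte-like cells against GMP-like cells, their likely precursors in the marrow, were higher for 36 of 37 genes and lower for 0, with a median log2 fold change of 1.98 against -0.01 over all genes, beside 31.8% of all genes called higher and 32.3% lower. With total scaling they were also 36 and 0 (32.7% and 30.5% of all genes). Slfn5, a Schlafen family protein, differed by 5.33 ± 0.308 (adjusted p = 2.78e-23), Ifit3 by 4.11 ± 0.270 (1.11e-19), Zbp1 by 4.09 ± 0.1997 (5.31e-22), Irf7 by 3.42 ± 0.163 (2.12e-26) and Mx1 by 3.38 ± 0.232 (6.26e-20), all edgeR adjusted p. Mx1, a dynamin-like GTPase against influenza virus, carries an inactivating deletion in most laboratory strains. Ifi44 had -0.65 ± 0.470 and was the gene not called.

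Neutrophil-like cells against GMP-like cells were higher for 30 and lower for 4, with all genes at 40.5% and 38.9%. The median was 1.32 against 0.03 over all genes. Total scaling left 17 higher and 9 lower (15.1% and 69.5% of all genes). On both scales Ddx60 (log2 fold change 4.12 ± 0.195, adjusted p = 4.37e-28), a helicase cofactor of RIG-I, Oas3 (3.80 ± 0.188, 3.52e-27), Rsad2 (3.73 ± 0.216, 3.24e-23), Rtp4 (3.14 ± 0.171, 2.17e-20), an inhibitor of viral replication, and Ifit3 (3.08 ± 0.297, 6.50e-14) were higher. Gbp3 (-3.28 ± 0.240, 2.76e-19), Bst2 (-1.53 ± 0.160, 2.54e-10) and Ifi47 (-1.37 ± 0.137, 6.78e-14), the first and the last of them interferon-induced GTPases, were lower on both scales. Ifi44 was lower too (-2.21 ± 0.562, adjusted p = 0.000383), though a finer clustering turned it to 0.52. The sign of 7 genes called higher turned with total scaling, namely Ifih1, Gbp2, Stat2, Xaf1, Ifi35, Parp14 and Ifit2, and 6 more (Oas1a, Usp18, Trim30a, Irf9, Irf1 and Igtp) were no longer called.

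Monocyte-like cells against neutrophil-like cells were higher for 24 and lower for 9 genes, beside 36.7% and 37.2% of all genes, with a median of 0.81 against -0.02. With total scaling they were higher for 30 and lower for 1 of 37, but so were 78.1% and 9.93% of all genes, so that the count of higher genes lay near that of all genes. The 5 largest differences in the higher direction were those of 3 GTPases, Slfn5 and Cxcl10. Gbp3 differed by 3.79 ± 0.209 (adjusted p = 7.94e-25), Mx1 by 3.16 ± 0.183 (8.89e-24), Slfn5 by 2.89 ± 0.178 (1.55e-22), Cxcl10 by 2.77 ± 0.377 (1.29e-07) and Ifi47 by 2.33 ± 0.120 (3.09e-26). Ddx60 was lower on both scales (-3.03 ± 0.143, adjusted p = 4.03e-28), with 0.0398, 0.0601, 0.0352, 0.0405 and 0.0701 per 10000 UMIs in monocyte-like and 0.121, 0.208, 0.188, 0.183 and 0.211 in neutrophil-like cells, ranges that did not overlap. Oas3 was lower with TMM (-1.34 ± 0.125, 7.72e-15) and not called with total scaling. Isg20 (-0.94 ± 0.132), Oas2 (-0.92 ± 0.143) and Rsad2 (-0.92 ± 0.136), with edgeR adjusted p of 4.43e-09, 7.21e-08 and 2.32e-08, were lower with TMM but had the opposite sign with total scaling (0.17, 0.20 and 0.19), as had Irf1, Rtp4, Ddx58 and Cmpk2. Genes whose order depended on the scale therefore included 7 of the 9 called lower.

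pDC-like cells against monocyte-like cells were higher for 6 and lower for 26 genes, with 23.5% and 25.7% of all genes called and a median of -1.31 against -0.01, and 6 and 22 with total scaling (32.3% and 18.2% of all genes). Higher were Ifi44 (3.94 ± 0.375, adjusted p = 2.20e-13), Bst2 (3.83 ± 0.165, 1.45e-19), Stat2 (1.09 ± 0.173, 2.33e-07), Irf1 (0.91 ± 0.136, 6.15e-08), Trim30a (0.73 ± 0.119, 4.37e-07), a TRIM protein that restrains NF-kB, and Irf7 (0.41 ± 0.132, 0.00806). The transcription factors therefore held 3 of the 6. Lower were all 3 tested Ifit genes and all 4 tested OAS genes, led by Cxcl10 (-4.24 ± 0.788, adjusted p = 4.03e-05), Ifit3 (-3.32 ± 0.354, 7.66e-12), Gbp2 (-3.30 ± 0.426, 1.11e-09), Ifit1 (-3.26 ± 0.465, 1.17e-07) and Oas1a (-3.03 ± 0.257, 9.18e-16).

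**Figure D3:**
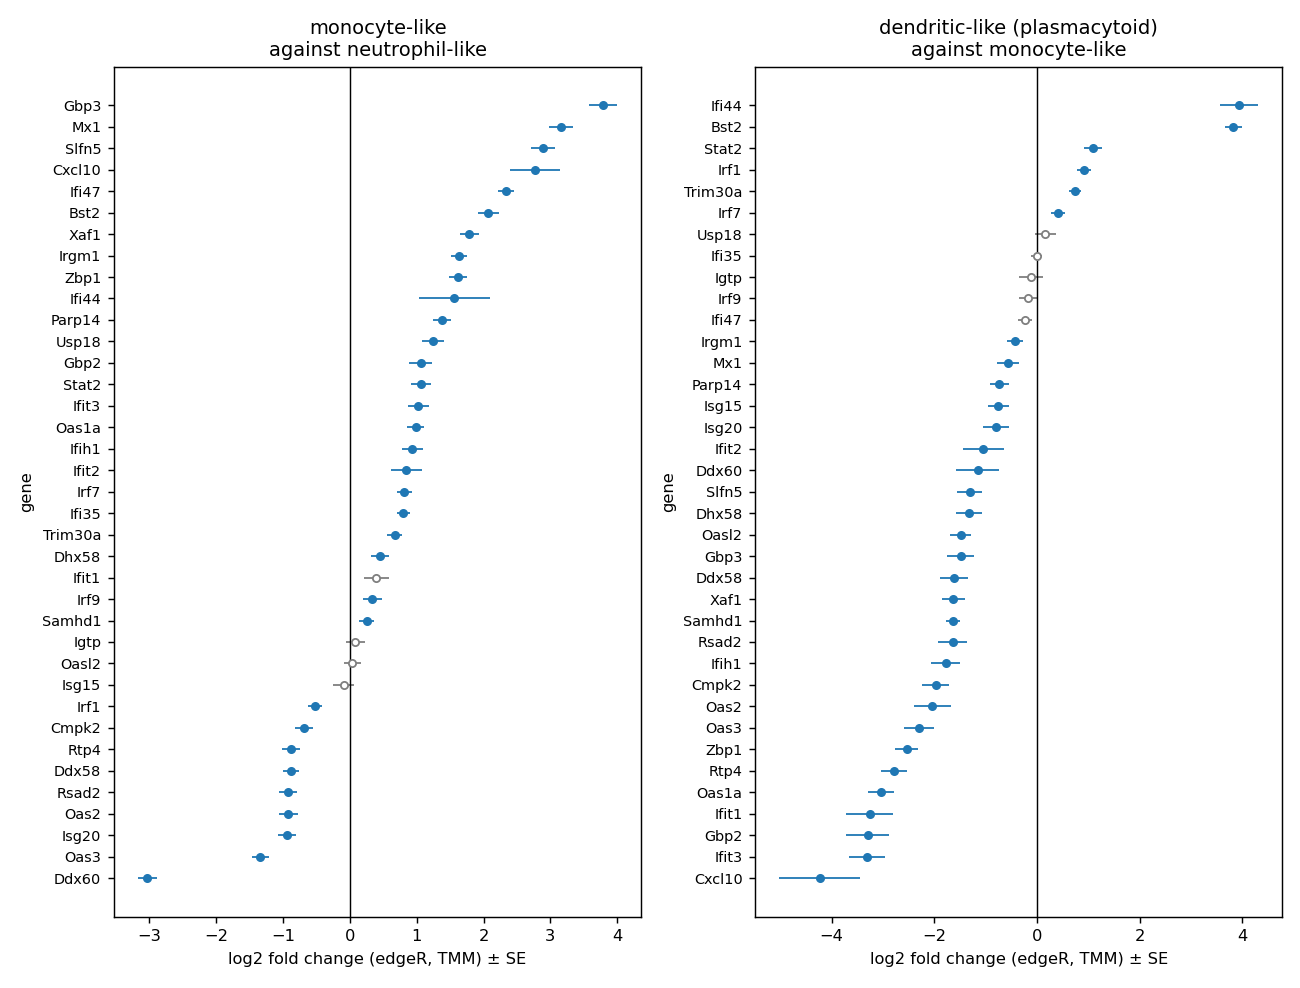
log2 fold change ± SE (edgeR, TMM scaling, 5 libraries) of the 37 tested genes in monocyte-like against neutrophil-like cells (left) and pDC-like against monocyte-like cells (right); filled blue points have an adjusted p below 0.05. At the right end on the left are Gbp3, Mx1 and Slfn5 and at the left end Ddx60 (-3.03), and of the 9 lower genes 7 have the opposite sign with total scaling; on the right Ifi44 and Bst2 stand at 3.94 and 3.83 and 26 genes are lower.

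Among lymphoid cells, B-like against pro/pre-B-like cells were higher for 15 and lower for 0 of 37 genes, beside 23.7% and 22.5% of all genes, with a median of 0.64 against 0.06. With total scaling 12 were higher and 0 lower (16.3% and 29.4% of all genes). Without a pro/pre-B-like cluster found almost only on day 3, a run added after the data had been seen, 13 were higher and 0 lower. There 2188 and 2122 of 9747 genes were called, and the median was 0.54 against 0.07. The log2 ratio of the summed levels of the 2 classes ran from 0.006 on day 0 to 1.14 on day 3. All 4 transcription factors were among the 15. Slfn5 differed by 2.51 ± 0.622 (adjusted p = 0.000614), Mx1 by 2.03 ± 0.649 (0.00789), Samhd1 by 1.66 ± 0.149 (3.00e-13), Oasl2 by 1.32 ± 0.454 (0.0141) and Irf9 by 1.22 ± 0.251 (9.89e-05). Samhd1 stood at 1.82, 2.21, 2.09, 2.18 and 2.15 in B-like cells and at 0.776, 0.411, 1.11, 0.899 and 0.545 in pro/pre-B-like cells, ranges that did not overlap.

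T-like against NK-like cells were higher for 8 and lower for 0, while 6.82% and 6.45% of all genes were called, with a median of 0.46 against 0.03. With total scaling 4 were higher and 2 lower (4.06% and 13.3% of all genes), and Gbp2, Isg15, Ddx60 and Bst2 were no longer called. The 8 were Oas2, Slfn5 (2.08 ± 0.651, adjusted p = 0.0214), Ddx60 (1.51 ± 0.504, 0.0341), Gbp2 (1.4 ± 0.436, 0.0208), Isg15 (1.23 ± 0.381, 0.0271), Igtp (1.11 ± 0.296, 0.00571), Samhd1 and Bst2. Oas2 had 28 UMIs in T-like cells and 0 in NK-like cells of all 5 libraries, which against a floor of 3 counts over all NK-like cells was at least 2.86-fold higher (edgeR adjusted p = 0.00227). This count rested on few NK-like cells, 49 to 132 per library, and fell to 4 genes without the day 0 library, to 5 (4 higher and 1 lower) without the day 6 library and to 2 with the finer clustering.

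Other genes of the pathway showed where ligands, receptors and signalling parts were. Type I interferon transcripts were nearly unseen, with 3 UMIs of Ifnb1, 1 of Ifna2 and 0 of Ifna1, Ifna4, Ifna5, Ifna6, Ifnab and Ifne in the 8 classes, and the type III genes Ifnl2 and Ifnl3 had 0. Ifng, the type II ligand, had 256 UMIs, with a level of 0.306 to 1.197 in NK-like and 0.112 to 0.231 in T-like cells. Calls for the other pathway genes are given with TMM scaling only. Of 22 further pathway genes that were tested, monocyte-like cells were higher than GMP-like cells for 17 and lower for 1 (31.8% and 32.3% of all genes). Neutrophil-like cells were higher than GMP-like cells for 14 and lower for 6 (40.5% and 38.9% of all genes). Ifnlr1, the specific chain of the type III receptor, was higher in neutrophil-like than in GMP-like cells (5.16 ± 0.234, adjusted p = 4.78e-29), at 0.131, 0.170, 0.220, 0.241 and 0.215 per 10000 UMIs against 0.0143 to 0.0337 in monocyte-like cells. Mavs (-2.27 ± 0.289, 2.31e-10) and Tmem173 (-2.21 ± 0.152, 1.59e-20), the adaptors of RNA and DNA sensing, and Irf8 (-2.65 ± 0.174, 3.83e-15), a factor of monocyte and dendritic fate, were lower in neutrophil-like than in GMP-like cells. In pDC-like against monocyte-like cells 8 of the 22 were higher, including Irf8 (3.08 ± 0.167, adjusted p = 1.14e-16) and the receptor Tlr7 (1.43 ± 0.174, 1.95e-10), and 9 were lower (23.5% and 25.7% of all genes). B-like against pro/pre-B-like cells were higher for 17 and lower for 1 (23.7% and 22.5% of all genes). T-like against NK-like cells were higher for 2 and lower for 5 (6.82% and 6.45% of all genes), with Ifng among the lower.

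Within neutrophil-like cells the summed level of the 38 genes rose from cluster to cluster. Clusters are ordered here by their leading genes, with those led by granule genes of immature cells first. The place in maturation of the last cluster, led by Cxcl2 and Il1b, was not tested. The cluster led by Fcnb and Camp had a mean of 2.14 per 10000 UMIs (1.49 to 2.57 over 5 libraries), that led by Ltf and Ngp 3.72 (2.81 to 4.3), that led by Mmp8 and Mmp9 7.31 (6.57 to 8.03), that led by Stfa2l1 and Cxcr2 12.7 (12.0 to 15.2) and that led by Cxcl2 and Il1b 16.3 (12.2 to 20.5). Each step was without overlap except the last. These clusters also differed in depth, from 10404 to 12908 UMIs in the median cell of the first to 1683 to 1934 in the last, so the same levels were 1.67 to 3.11 and 2.62 to 4.93 UMIs of the listed genes per cell.

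Single genes followed the sum to unequal degrees. Rtp4 ran from 0.0282 to 0.109 in the Fcnb and Camp cluster and from 1.37 to 2.83 in the Cxcl2 and Il1b cluster, and Samhd1 from 0.224 to 0.368 and from 2.76 to 3.65. Ifit2 showed no such rise, at 0.0244 to 0.0722 in the first cluster and 0 to 0.0425 in the last, ranges that overlapped. These levels rested on 89 and 9 UMIs, and the cells of the first cluster were deeper. Mx1 reached at most 0.0318 in the 5 neutrophil-like clusters. In monocyte-like cells the cluster led by Mnda and Ms4a8a had 24.8 and the Ace and Cd209a cluster 20.7, with overlapping ranges. The Cd14 and Thbs1 cluster had 15.1, and the cluster led by histone and mitosis genes 9.25. Genes were not used for the clusters if they were on the list, but a cluster is no independent sample, so these differences were not tested.

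**Figure D4:**
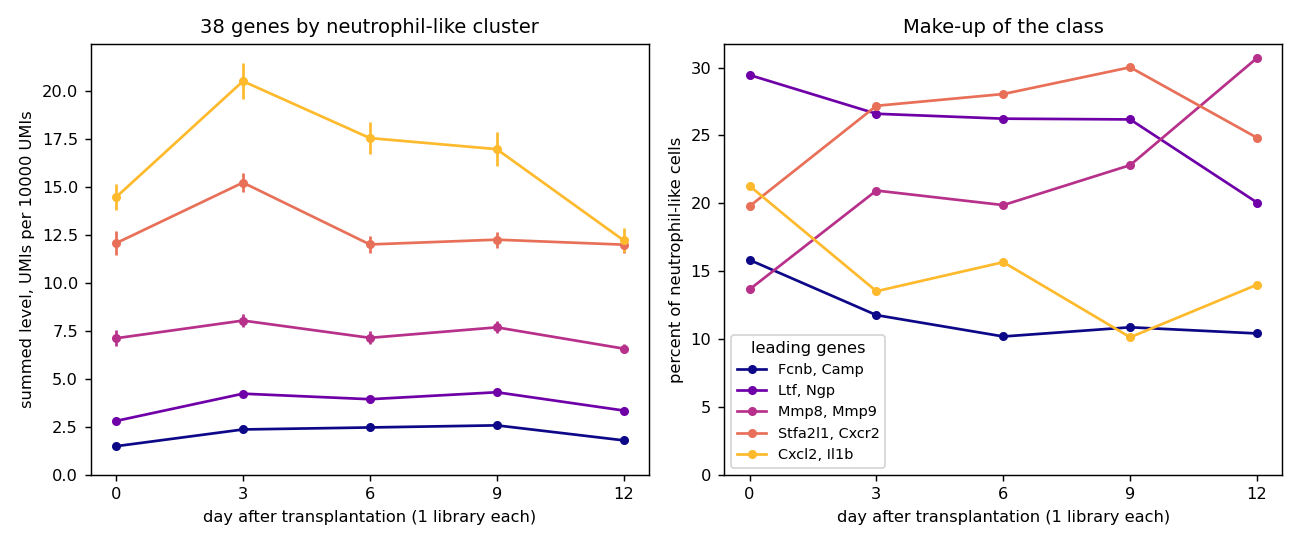
Left, summed level of the 38 genes (UMIs per 10000 UMIs, with exact 95% Poisson intervals for counting error) in the 5 neutrophil-like clusters, named by leading genes, against the day after transplantation with 1 library each; right, the percent of neutrophil-like cells in each cluster. The Cxcl2 and Il1b cluster is the highest on each day (12.2 to 20.5) and the Fcnb and Camp cluster the lowest (1.49 to 2.57), while the Mmp8 and Mmp9 cluster grows from 13.7% to 30.7% of the class.

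How the listed genes moved over the days was described as a ratio to the day 0 library, with exact 95% intervals that cover counting error only. All 4 later days are set against the same day 0 mouse. In neutrophil-like cells the summed level was 4.53 per 10000 UMIs on day 0, then 6.92, 6.28, 6.41 and 5.60, which were ratios of 1.53 (1.480 to 1.575), 1.38 (1.34 to 1.43), 1.41 (1.37 to 1.46) and 1.23 (1.197 to 1.274). Over all genes with at least 50 UMIs in both libraries together, the median ratio was 1.11, 1.16, 1.15 and 1.01. The shares of the clusters changed as well. A calculation added after the data had been seen gave each cluster a fixed weight, its share of the neutrophil-like UMIs over all libraries. With these weights the ratios were 1.33, 1.16, 1.21 and 1.0. The level of day 12 was thus the same as that of day 0 under fixed cluster weights.

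Of the neutrophil-like genes with at least 50 UMIs in both libraries together, 17 of 34 were at least 1.5-fold higher and 0 at least 1.5-fold lower on day 3, against 8.72% and 4.47% of all genes. On day 6 there were 8 and 0 of 34 (14.5% and 3.67% of all genes), on day 9 14 and 0 of 34 (15.9% and 4.51%), and on day 12 8 and 2 of 33 (5.56% and 5.08%). Under fixed cluster weights the counts were 11 and 0 (9.69% and 3.84% of all genes), 2 and 2 (15.2% and 3.29%), 6 and 0 (16.8% and 3.73%), and 1 and 3 (4.79% and 3.25%). The share of the listed genes that was higher was then above that of all genes on day 3, near it on day 9 and below it on days 6 and 12. Oas3 was at 0.123, 0.297, 0.269, 0.266 and 0.222 per 10000 UMIs, a ratio of 2.41 (2.03 to 2.88) on day 3, 2.18 on day 6, 2.16 on day 9 and 1.80 (1.51 to 2.16) on day 12, and 1.98, 1.71, 1.71 and 1.34 under fixed weights. Cmpk2, the nucleotide kinase next to Rsad2, was past 1.5 on all 4 days (1.504 to 2.29), as were Trim30a (1.60 to 1.72) and Ddx60 (1.51 to 1.74). Under fixed weights, however, Ddx60 was at 1.12 to 1.33 and Trim30a at 1.30 to 1.46 on the 4 days, and Cmpk2 at 1.91, 1.43, 2.06 and 1.32. Bst2 was past it on days 3, 6 and 9 (2.52 to 2.89), the days on which its level in barcodes of at most 100 UMIs was higher as well.

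The other genes past the limit in neutrophil-like cells on day 3 were Ifit1 with a ratio of 2.13 (1.59 to 2.88), Rsad2 with 2.03 (1.68 to 2.46), Oasl2 with 1.95, Zbp1 with 1.94, Rtp4 with 1.85, Parp14 with 1.83, Ifit3 with 1.68, Xaf1 with 1.67, Ifit2 with 1.63 (0.973 to 2.80), Isg15 with 1.59, Igtp with 1.58 and Irf7 with 1.502. On day 6 they were Oasl2 (1.74), Rsad2 (1.69) and Gbp2 (1.65). On day 9 they were Ifit2 (1.98), Rsad2 (1.94), Parp14 (1.61), Oasl2 (1.59), Ifit3 and Ifit1 (both 1.55), Ifih1 (1.54), Zbp1 (1.52) and Igtp (1.51), and Rsad2, Oasl2 and the Ifit genes were thus not among those of day 12. On day 12 Zbp1 (1.65), Ifih1 (1.64), Oas2 (1.56) and Xaf1 (1.51) were past the limit, and Cxcl10 (0.432, interval 0.226 to 0.798) and Gbp2 (0.591, 0.336 to 1.03) were lower. Under fixed cluster weights Ifit1 (1.49), Ifit3 (1.21), Isg15 (1.38), Igtp (1.49) and Irf7 (1.36) fell below 1.5 on day 3. The others named here for day 3 stayed past it. Those of day 6 fell to 1.38 (Oasl2), 1.32 (Rsad2) and 1.27 (Gbp2). Of the higher genes named here, only Ifit2 (2.14), Rsad2 (1.56) and Ifih1 (1.59) stayed past it on day 9. On day 12 only Ifih1 (1.67) did, while Cxcl10 (0.472) and Gbp2 (0.432) stayed lower.

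With fixed cluster weights the neutrophil-like ratios were 1.33, 1.16, 1.21 and 1.0, and no such weights were applied to monocyte-like cells. Without them in either class, monocyte-like cells moved less. Their summed level was 16.1 per 10000 UMIs on day 0 and 20.7, 17.5, 17.9 and 17.6 later, ratios of 1.29 (1.25 to 1.32), 1.09 (1.06 to 1.12), 1.11 (1.08 to 1.14) and 1.10 (1.06 to 1.13). The median ratio over all genes with at least 50 UMIs was 1.06, 1.08, 1.05 and 1.05. On day 6 the summed ratio thus lay near that of the median gene. On day 3, 12 of 37 genes were at least 1.5-fold higher and 0 lower, against 8.67% and 4.01% of all genes. Days 6, 9 and 12 had 8 and 0 (9.27% and 3.57%), 8 and 0 (10.0% and 4.56%), and 5 and 1 (7.03% and 3.20%) of 37.

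Oas3 was again past the limit on all 4 days, at 0.110, 0.255, 0.211, 0.247 and 0.183 per 10000 UMIs (ratios 2.32, 1.92, 2.25 and 1.66, the first with an interval of 1.74 to 3.12). So were Ifit2 (1.86, 1.98, 2.15 and 1.78) and Igtp (1.88, 1.68, 1.58 and 1.71), an immunity-related GTPase. On day 3 Oasl2 (2.14, interval 1.80 to 2.56), Ifi47 (1.74), Mx1 (1.67), Cmpk2 (1.60), Gbp2 (1.53), Ddx60 (1.51, 0.889 to 2.61), Isg15 (1.51), Oas1a (1.503) and Rtp4 (1.501) passed it too. No listed transcription factor or sensor was past 1.5 that day, though Irf7 and Zbp1 were also higher than on day 0. On day 6 Rsad2 (1.79), Ifit1 (1.71), Cxcl10 (1.55), Parp14 (1.52) and Gbp2 (1.51) joined Oas3, Ifit2 and Igtp, and on day 9 Cmpk2 (1.82), Rsad2 (1.70), Oasl1 (1.57, 0.964 to 2.61), Oasl2 (1.57) and Ifih1 (1.53). On day 12 Ddx60 (1.76) and Cmpk2 (1.65) were higher and Cxcl10 was lower (0.555, 0.427 to 0.716).

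In B-like cells the summed level was 6.92 on day 0 and 8.61, 8.35, 9.17 and 9.08 per 10000 UMIs later, ratios of 1.25, 1.21, 1.33 and 1.31 with intervals above 1. The median ratio over all genes with at least 50 UMIs was 0.940, 0.979, 0.949 and 0.986. Few listed genes reached 50 UMIs. On day 3, 1 of 5 was at least 1.5-fold higher and 0 lower (4.28% and 13.7% of all genes), on day 6 1 of 8 (4.29% and 6.48%), on day 9 2 of 7 (4.43% and 11.7%) and on day 12 1 of 5 (10.9% and 14.6%), with 0 lower each time. Trim30a was the gene on day 3 (1.78, 1.08 to 2.84), day 9 (1.52, 0.992 to 2.30) and day 12 (1.72, 0.816 to 3.30), with Bst2 (1.501) on day 6 and Parp14 (1.58, 0.929 to 2.64) on day 9. Of these 5 intervals, 3 reached below 1, among them that of day 12, when 89 B-like cells were measured.

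The other classes had no common course. GMP-like cells had 3.72 per 10000 UMIs on day 0 and ratios of 1.71 (1.58 to 1.85), 1.36, 1.32 and 1.17 (1.08 to 1.27), and T-like cells ratios of 1.11, 1.08, 1.17 and 1.02, the last with an interval of 0.927 to 1.13. NK-like cells were at 0.690, 0.926, 1.28 and 1.17, and pDC-like cells at 1.13, 1.10, 1.05 and 0.905. pro/pre-B-like cells were below day 0 each time, with 6.89 per 10000 UMIs on day 0 and 3.91, 6.08, 6.17 and 4.99 later. On day 3 a cluster of 143 of the 394 pro/pre-B-like cells, with 2.72 per 10000 UMIs, was nearly absent from the other libraries, and without it the day 3 level was 6.31. Across the class the median depth on day 3 was 4255 UMIs, against 2348 to 3330 on the other days. On day 12 most GMP-like, T-like, NK-like, pDC-like and pro/pre-B-like cells were over the mitochondrial limit set per library. Their ratios were not recalculated under that limit.

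The listed genes were also followed in single cells. To set depth apart, cells were thinned to 1000 UMIs and shallower cells left out. A UMI of at least 3 different genes of the inducible list was then found in 7.88% to 11.2% of monocyte-like cells per library (mean 8.77%), and in 2.05% to 4.60% of neutrophil-like cells (mean 2.84%, highest on day 3). The means were 1.71% in pDC-like, 1.22% in T-like, 1.07% in NK-like, 0.803% in B-like, 0.698% in pro/pre-B-like and 0.215% in GMP-like cells. Unthinned, the share was 38.7% to 62.0% in monocyte-like, 8.30% to 19.4% in neutrophil-like and 8.72% to 33.2% in GMP-like cells, so depth moved it in each of these classes. The class of cells above the limit is a range and not a cell type, with 809 neutrophil-like cells at exactly 2 genes and 255 at exactly 3. The Fano factor (variance over mean) of the thinned UMIs of the list was 2.39 to 3.75 in neutrophil-like, 3.22 to 5.14 in monocyte-like and 1.13 to 1.69 in GMP-like cells.

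Cells with a UMI of Ifit1, Ifit2 or Ifit3 had more of the other 35 genes. In 272 such neutrophil-like cells the other genes had 42.8 UMIs per 10000, against 7.94 in the 15935 cells without, a ratio of 5.39 that was 3.76 with the second group weighted to the clusters of the first. In monocyte-like cells 185 and 4105 cells had 76.6 and 17.3 (ratio 4.43, weighted 3.87). The ratio was 4.64 to 8.89 in the 5 libraries for neutrophil-like and 3.44 to 4.89 for monocyte-like cells. Among genes with at least 20 thinned UMIs in the class, the interval of the ratio was above 1 for 29 of 33 listed genes in neutrophil-like cells (6.60% of all genes) and 33 of 34 in monocyte-like cells (5.03%). T-like cells showed less of this, with 3 of 18 listed genes (2.05% of all genes), a ratio of 2.33 over 46 and 1726 cells, and library ratios from 0.772 to 3.40. Rsad2 (19.7, 16.0 to 24.2), Usp18 (16.5) and Isg15 (13.5, 11.6 to 15.7) were among the most enriched in neutrophil-like cells, and Cxcl10 (26.9, 19.8 to 36.6), Rsad2 (23.9) and Mx1 (10.9) in monocyte-like cells. Samhd1 (2.14 and 2.06) and Irf1 (1.71, with 0.925 to 2.89, and 2.59) were near the other end. Cells of a library share their mouse and free RNA, so these ratios describe the libraries.

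**Figure D5:**
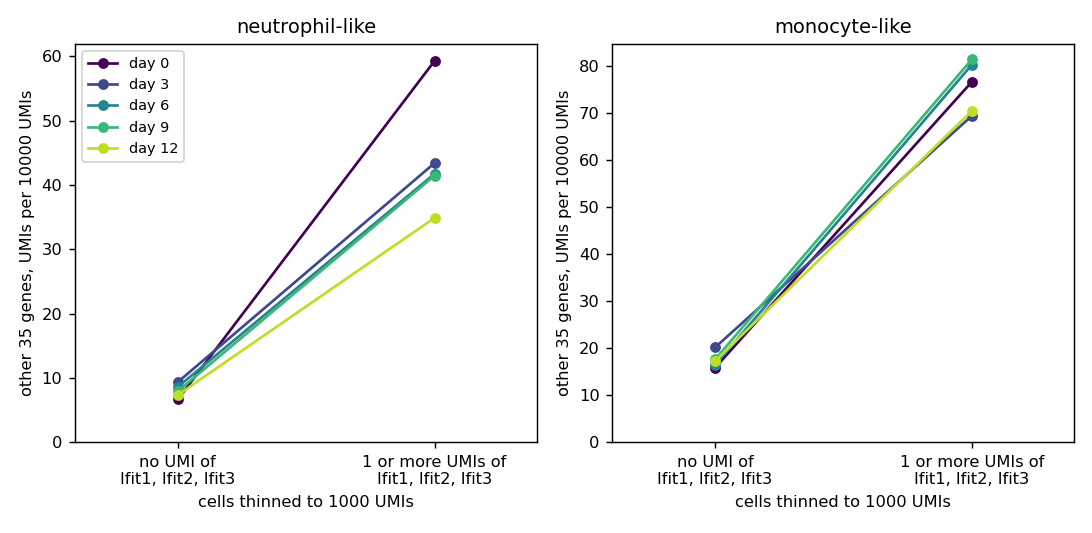
UMIs of the other 35 genes per 10000 UMIs in cells thinned to 1000 UMIs, without (left position) and with (right position) a UMI of Ifit1, Ifit2 or Ifit3, for neutrophil-like and monocyte-like cells; each line is 1 library. Every line rises, from 6.67 to 9.36 up to 34.9 to 59.3 in neutrophil-like and from 15.8 to 20.1 up to 69.4 to 81.4 in monocyte-like cells.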

How the data were processed

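Droplet-based single-cell libraries (10x Genomics 3′ v2) were made from the bone marrow of 5 mice, 1 for each of 5 days, which were the groups. The authors processed the reads with Cell Ranger on mm10 and deposited raw UMI counts per gene and barcode, empty droplets included; the annotation release is not given in the sources used here. The listed genes, gene lists and comparisons were chosen with earlier results of these data known.

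Barcodes with at least 500 UMIs and at most 10% mitochondrial UMIs were kept. Counts were clustered with leidenalg 0.10.2 (resolution 0.6) on 1001 variable genes, without the listed genes and other interferon-stimulated genes. Of 21 clusters, those with markers of a type were named, and 1 was left unnamed because markers of a different type led it. Doublets were kept, with Scrublet scores from scanpy 1.11.5 used in an alternative.

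Counts per class and library (at least 20 cells) were tested with edgeR 4.0.16 (R 4.3.3; quasi-likelihood, filterByExpr, TMM, class and library as terms; adjusted p below 0.05). Ratios to day 0 used genes with at least 50 UMIs in both libraries together and a limit of 1.5. Intervals are exact at 95% (Poisson for levels, Clopper-Pearson for ratios) and cover counting error only. With 33425695 to 43554233 UMIs per library, genes with few UMIs are imprecise. Named genes were those of the main roles, up to 5 per direction with the largest fold change in a class comparison, and each gene past 1.5 against day 0 in neutrophil-like, monocyte-like and B-like cells. UMIs are 3′ tags, so no gene length was applied. Upstream sequences came from RefSeq (GRCm38.p6). Alternatives were DESeq2 1.42.0 and its size factors, no count filter, no replicate block, leaving out each library, other limits on cells and a resolution of 1.2. Chosen after seeing the data were total scaling, fixed cluster weights, sums without Bst2, leaving out the day 3 cluster of pro/pre-B-like cells and the shares over all genes beside them. The edgeR class test was tried on simulated counts of neutrophil-like against GMP-like sums, which shared a common profile apart from a set of altered genes. The values of 1 pathway gene are not reported here.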

Additional observations from a re-analysis of the deposited data

Results flagged for a closer look

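The summed level of the 38 genes in pro/pre-B-like cells was below day 0 in all 4 later libraries, with the ratio nearest to 1 at 0.896 on day 9, while it was above day 0 in all 4 in neutrophil-like, monocyte-like, GMP-like, B-like and T-like cells. It was picked out because the classes moved in opposite directions. The difference between the classes was not tested.

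The level of the 38 genes in barcodes of at most 100 UMIs, which enter no comparison, had a median of 13.2 per 10000 UMIs over the 5 libraries. It was picked out as a signal in data that the comparisons do not use.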

How the results depend on the processing

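The 6 counts of called genes stayed within 1.5 times their value with both directions added, under DESeq2, DESeq2 size factors, no count filter, no replicate block, other limits on cells and doublets and total scaling, except T-like against NK-like cells (8), which fell to 2 at resolution 1.2. By direction total scaling moved more, from 30 and 4 to 17 and 9 in neutrophil-like against GMP-like, from 24 and 9 to 30 and 1 in monocyte-like against neutrophil-like and from 8 and 0 to 4 and 2 in T-like against NK-like cells. The class fits were paired within a library, while between days, with 1 library each, there was no pairing. Without the library as replicate block the class fits called 33, 36, 31, 13, 7 and 30 genes, against 34, 36, 33, 15, 8 and 32 with it, in the order neutrophil-like and monocyte-like against GMP-like, monocyte-like against neutrophil-like, B-like, T-like and pDC-like. Leaving out 1 library gave 33 to 35, 36 to 36, 31 to 33, 11 to 15, 4 to 7 and 27 to 30. Of 94 named calls, 67 held under each alternative. Of 1326 values, 74 lost the call and 7 turned sign: Ifi44 (0.52, resolution 1.2), Ifit2 (-0.30) and Stat2 (-0.46) in neutrophil-like against GMP-like and Irf1 (0.60), Isg20 (0.17), Oas2 (0.20) and Rsad2 (0.19) in monocyte-like against neutrophil-like cells, the last 6 with total scaling. The cause was not tested.

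In pDC-like cells the day 12 ratio of the summed level moved from 0.905 to 1.07 (0.903 to 1.27) without Bst2. The ratios of the summed level to day 0 in neutrophil-like, monocyte-like and B-like cells kept their direction. The exception was that of neutrophil-like cells on day 12, which was 1.0 with fixed cluster weights. In neutrophil-like cells (days 3, 6, 9, 12) they were 1.39, 1.21, 1.17 and 1.02 as a mean over cells, 1.46, 1.25, 1.21 and 1.07 thinned, and 1.33, 1.16, 1.21 and 1.0 with fixed cluster weights. Other values that moved were 1.46 and 1.11 on days 9 and 12 with equal gene weights and 1.34 on day 6 without Bst2. In monocyte-like cells equal gene weights gave 1.42, 1.2, 1.25 and 1.16, thinning 1.23 and 1.06 on days 3 and 12, and the mitochondrial limit per library 1.25 on day 12. In B-like cells equal gene weights gave 1.44, 1.53 and 1.55 on days 3, 6 and 9, and that limit left under 20 cells on day 12.

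A limit of 2-fold left 5, 2, 3 and 1 genes in neutrophil-like, the last of them lower, 2, 0, 2 and 0 in monocyte-like and 0 on each day in B-like cells, with 1.77% to 4.06% of all genes past it in neutrophil-like and 1.72% to 3.02% in monocyte-like cells. A minimum of 20 UMIs gave 6, 5, 6 and 4 in B-like cells, of which 2 were lower on day 3 and 1 on day 12, with 18.8% to 39.6% of all genes past the limit. Fixed cluster weights gave 11, 4, 6 and 4 in neutrophil-like cells. For the share of cells with several inducible genes, 2 or more genes gave 7.88%, 17.9%, 1.81%, 1.96%, 2.45%, 4.37%, 3.55% and 5.35%, in neutrophil-like, monocyte-like, GMP-like and B-like cells, then pro/pre-B-like and T-like, and last NK-like and pDC-like cells. With 4 or more genes it was 1.25%, 4.55% and, in B-like cells, 0.150%, and thinning to 2000 UMIs gave 5.59%, 18.0%, 0.882%, 2.27% in pro/pre-B-like, 4.57% in T-like, 4.85% in NK-like and 6.18% in pDC-like cells.

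Single mice per day, free RNA and rare transcripts limit these values. Genes with under 50 UMIs, most of the list in B-like cells, cannot be followed over days at this depth.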
